A study of Homo sapiens with 8 samples.

Results

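The genes examined encode the core of the basement membrane, namely the collagen IV chains COL4A1 and COL4A2, the laminin chains LAMA4, LAMB1, LAMB2 and LAMC1, the nidogens NID1 and NID2, and the proteoglycans perlecan (HSPG2) and agrin (AGRN). They were chosen by gene symbol, and their 10 entries were found among the 47591 genes of the table. Polyadenylated RNA was sequenced from SH-SY5Y, a human neuroblastoma line. The G2 line (3 libraries) had been edited by CRISPR/Cas9 with a guide to PRPF40B, which encodes a splicing factor, the scramble line SCR (3 libraries) had received Cas9 with control guides, and the WT line (2 libraries) was unedited. G2 and SCR were selected and kept in puromycin, WT was not, and edited colonies were raised by limiting dilution, so that a line may descend from 1 cell. The comparison G2/SCR set the edited line against the scramble line, G2/WT set the same G2 libraries against unedited cells, and SCR/WT measured the difference between both controls. With 1 edited line, an effect of silencing PRPF40B cannot be told apart from other differences between the lines.

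A basement membrane is a thin sheet of extracellular matrix that underlies epithelia and endothelia and wraps Schwann cells, muscle and fat. Laminins are trimers of an alpha, a beta and a gamma chain that form a polymer bound to receptors on the cell surface, and collagen IV forms a covalently crosslinked network beside it. Nidogens bridge the laminin and collagen IV layers, and perlecan and agrin, which carry heparan sulfate chains, anchor growth factors and further link the sheet to cells. In the nervous system agrin is known for clustering acetylcholine receptors at the neuromuscular junction, and laminins for promoting the outgrowth of neurites.

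The libraries held between 59804395 and 81080747 recovered counts in all. Ribosomal RNA genes took 4.75% and 4.96% of the normalized counts in WT and between 0.384% and 0.587% in G2 and SCR. PRPF40B, the targeted gene, stood at 840.2, 841 and 918 normalized counts in G2, 1686, 1672 and 1669 in SCR and 1972 and 1668 in WT, so that every G2 library lay below every control library, and its log2 fold change in G2/SCR was -0.95 (standard error, SE, 0.08, adjusted p = 7.4e-07, limma). The adrenergic neuroblastoma markers, which define the labelled cells, all passed the filter on low values (10 of 10, with TH the lowest, at 5.65, 0 and 0 normalized counts in G2, 26.5, 5.63 and 9.82 in SCR and 19.9 and 13.9 in WT), and their summed level ran from 262942 to 265895 normalized counts in G2, from 361049 to 369455 in SCR and from 328878 to 342391 in WT.

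Of the 10 basement membrane genes, 9 rose in G2 against both controls (11.3% of all genes tested did) and LAMA4 fell against both (6.43% of all did). All 10 passed the filter of a mean of at least 10 normalized counts. Calls required a change of 1.5-fold or more and an unadjusted p no greater than 0.05 (limma), a rule that selected 26.9% of the 18947 genes tested in G2/SCR (15.1% higher and 11.8% lower) and 29.9% in G2/WT (17.7% higher and 12.2% lower). In SCR/WT, where 16.3% of the genes tested were called, LAMA4 and NID2 were higher in SCR and the other 8 genes were not called. Thus 8 of the 9 genes rose against both controls while the controls did not differ by the same rule, as did 8.13% of all genes tested. For the same 9 genes every G2 library lay above every control library (22.8% of all genes tested), and for LAMA4 every G2 library lay below them (19.7%). When the adjusted p (Benjamini-Hochberg over all genes tested) was held to 0.05 instead, the counts of called members were the same in each comparison, while 25% (G2/SCR), 28.2% (G2/WT) and 13.8% (SCR/WT) of all genes tested were called. The median log2 fold change of the 10 genes was 1.02 in G2/SCR, 1.10 in G2/WT and 0.05 in SCR/WT, against medians of -0.01, 0.00 and 0.01 over all genes tested. Both G2 comparisons use the same G2 libraries and are therefore not independent. In RNA from whole cultures, fewer cells that express a gene and less RNA per cell cannot be told apart.

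**Figure D1:**
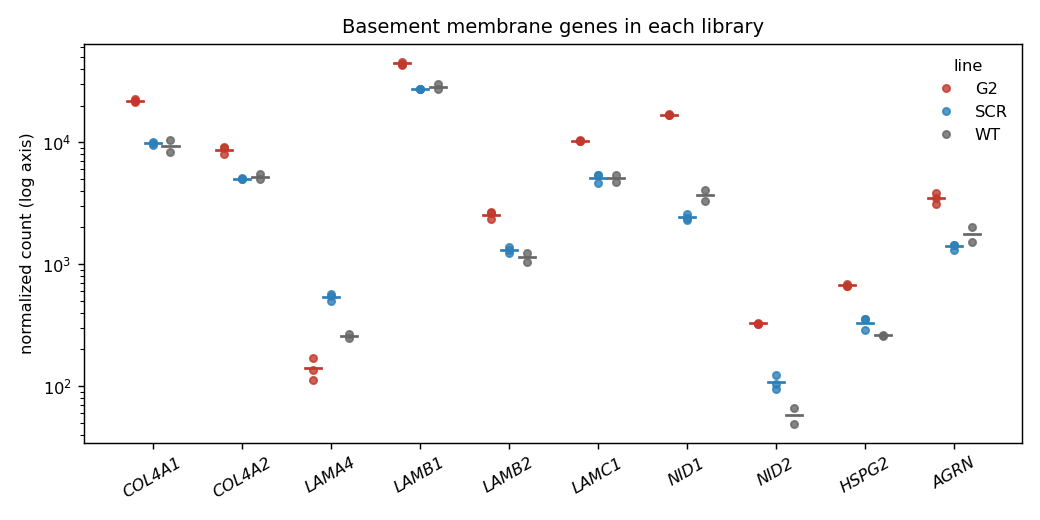
Normalized counts (log axis) of the 10 basement membrane genes in each library, with 1 point per library and a bar at the mean of each line. The G2 points lie above all control points for 9 genes, and below them for LAMA4.

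The genes for both collagen IV chains rose in G2. COL4A1 (GSHG0011892, chromosome 13 from 110148963 to 110307157 on the minus strand) and COL4A2 (GSHG0011306, chromosome 13 from 110307284 to 110513209 on the plus strand) encode the chains of the widespread collagen IV trimer, and their transcripts run away from each other from neighbouring starts in hg38 with 126 bases between them. The stretch from one start to the other is shown because both genes are read from it, and it holds 1 CCAAT box and 1 GC box (GGGCGG), given in capitals. It is printed on the plus strand, chr13:110307157-110307284, from the RefSeq promoter table (GRCh38.p14).
COL4A1 start to COL4A2 start: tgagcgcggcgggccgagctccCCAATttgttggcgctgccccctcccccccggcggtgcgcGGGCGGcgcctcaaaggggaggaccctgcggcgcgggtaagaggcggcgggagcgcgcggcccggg

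COL4A1 stood at 21986, 22437 and 21456 normalized counts in G2, 9823, 9566 and 10093 in SCR and 8397 and 10371 in WT. All G2 libraries lay above all control libraries, and SCR lay within the range of WT. Its log2 fold change was 1.16 with SCR as the control (SE 0.07, adjusted p = 5.3e-08, limma) and, with WT as the control, 1.23 (SE 0.08, adjusted p = 8.9e-08). COL4A2 stood at 7958, 9154 and 8898 normalized counts in G2, 5084, 4984 and 4957 in SCR and 5443 and 4990.1 in WT, again with every G2 library above the controls. Its log2 fold change was smaller, at 0.79 with SCR as the control (SE 0.06, adjusted p = 6.7e-07, limma) and, with WT as the control, 0.73 (SE 0.07, adjusted p = 3.7e-06). In SCR/WT the log2 differences were 0.07 (SE 0.08, adjusted p = 0.5) for COL4A1 and -0.06 (SE 0.07, adjusted p = 0.57) for COL4A2.

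Although both genes rose, the balance between them differed between the lines. The log2 ratio of COL4A1 to COL4A2 within a library, which does not depend on how libraries are scaled, was 1.47, 1.29 and 1.27 in G2, 0.95, 0.94 and 1.03 in SCR and 0.63 and 1.06 in WT. Every G2 library had a higher ratio than every control library, and the mean was 0.37 above SCR and 0.50 above WT on the log2 scale, or 0.29 above WT without WT replicate 1. In the exact two-sided permutation test of 3 G2 against 5 control libraries this gave p = 0.036, the smallest value that the test allows over 56 groupings, and 0.060 after adjustment over the 5 ratios examined. The remaining collagen IV genes were near or below detection. COL4A3 and COL4A4 were at 0 in every library, COL4A5 was at 5.65, 0 and 21.5 normalized counts in G2 and at 0 in the controls, and COL4A6 was at 0, 6.57 and 0 in G2 and at 0 in the controls. A count of 0 allows about 3 fragments per library, by counting error alone.

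The laminin genes moved in both directions. LAMB1 (GSHG0041000, chromosome 7 from 107923799 to 108003187 on the minus strand), a beta chain, had the highest normalized counts of the 10 genes, 45466, 44249 and 43159.8 normalized counts in G2, 27244, 27259 and 27403 in SCR and 27399 and 29873 in WT. All G2 libraries were above the controls, which lay close together. The log2 fold change was 0.70 with SCR as the control (SE 0.05, adjusted p = 2.2e-07, limma) and, with WT as the control, 0.63 (SE 0.05, adjusted p = 1.6e-06), the smallest rise among the 9 genes, and it fell below the fold threshold in G2/WT when WT replicate 1 was left out (0.57). LAMB2 (GSHG0031286, chromosome 3 from 49121114 to 49133118 on the minus strand), the beta chain known from the neuromuscular synapse and the kidney glomerulus, stood at 2361, 2672 and 2611 normalized counts in G2, 1237, 1316 and 1372 in SCR and 1244 and 1039 in WT. Its G2 libraries also lay above every control, and its log2 fold change was 0.96 with SCR as the control (SE 0.08, adjusted p = 1.4e-06, limma) and, with WT as the control, 1.16 (SE 0.09, adjusted p = 7.5e-07).

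LAMC1 (GSHG0001456, chromosome 1 from 183023420 to 183145592 on the plus strand), the gamma chain of most laminin trimers, stood at 10315, 10412 and 10272 normalized counts in G2, 5348, 5375 and 4643 in SCR and 4712 and 5410.0 in WT. The G2 values exceeded all control values, and SCR and WT overlapped. The log2 fold change was 1.02 with SCR as the control (SE 0.07, adjusted p = 1.8e-07, limma) and, with WT as the control, 1.03 (SE 0.08, adjusted p = 4.7e-07), with 0.02 (SE 0.08, adjusted p = 0.89) in SCR/WT. The log2 ratio of LAMB1 to LAMB2 was 4.27, 4.05 and 4.05 in G2, 4.46, 4.37 and 4.32 in SCR and 4.46 and 4.84 in WT. All G2 libraries were lower in this ratio than all control libraries (exact two-sided permutation test, p = 0.036, adjusted p = 0.060). The mean differences on the log2 scale were -0.26 from SCR and -0.53 from WT, or -0.34 from WT without WT replicate 2. The controls also differed, with SCR minus WT at -0.27, or -0.08 without WT replicate 2.

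LAMA4 (GSHG0038306, chromosome 6 from 112107931 to 112254711 on the minus strand), an alpha chain found in vessels, muscle and peripheral nerve, was the exception. It stood at 135, 171 and 113 normalized counts in G2, 545, 572 and 502 in SCR and 247 and 269 in WT. Every G2 library lay below every control library, and every SCR library lay above both WT libraries, so that the controls differed from each other as well. The log2 fold change was -1.96 with SCR as the control (SE 0.15, adjusted p = 3.5e-07, limma) and, with WT as the control, -0.90 (SE 0.16, adjusted p = 5.8e-04). In SCR/WT it was 1.06 (SE 0.16, adjusted p = 4.3e-04), higher in SCR, so that the fall in G2 was 3.90-fold against SCR and 1.87-fold against WT. Relative to LAMC1, the gamma chain with which it assembles, the log2 ratio was -6.25, -5.92 and -6.50 in G2, -3.29, -3.23 and -3.21 in SCR and -4.25 and -4.32 in WT. The groups did not overlap (exact two-sided permutation test of G2 against the controls, p = 0.036, adjusted p = 0.060). The 3 entries that overlap LAMA4, among them the antisense LAMA4-AS1, were at 0 in all libraries.

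**Figure D2:**
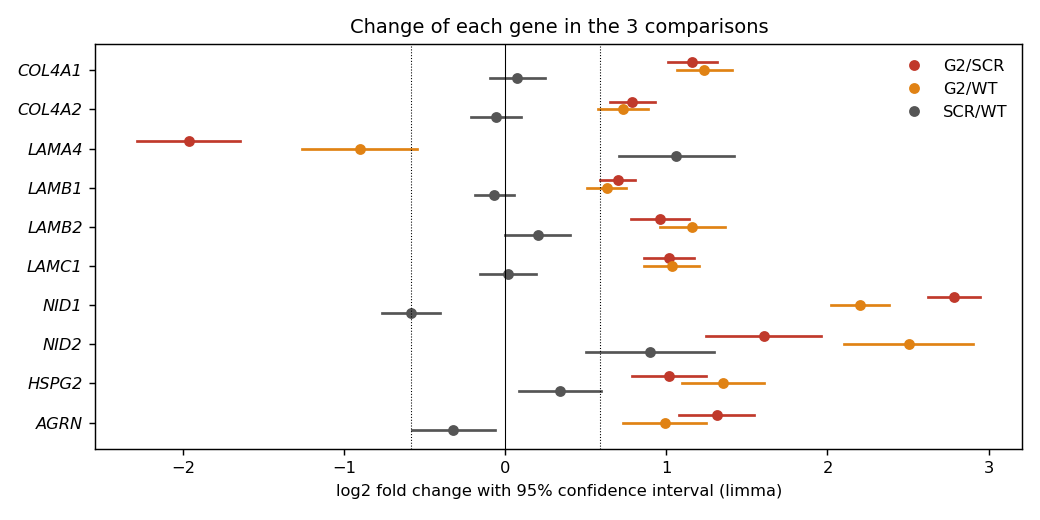
Log2 fold change of each gene in the 3 comparisons, with 95% confidence intervals (limma); dotted lines mark a fold of 1.5 in either direction. The red and orange points (G2/SCR, G2/WT) lie to the right of 0 for 9 genes, whereas LAMA4 lies at -1.96 and -0.90, and the grey SCR/WT points of COL4A1, COL4A2, LAMB1 and LAMC1 lie between -0.07 and 0.07.

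The other laminin alpha chains were examined to place LAMA4, on a scale of normalized counts per kilobase of annotated exon (GENCODE 44, union of exons). LAMA5 held the largest part of the summed alpha chain level, 89.2% in G2, 77.5% in SCR and 90.5% in WT, whereas LAMA4 held 2.47%, 15.6% and 5.63%. Per kilobase, LAMA5 was at 420.3 ± 48.5 in G2 (SD, n = 3), 223 ± 20.4 in SCR (SD, n = 3) and 347 ± 4.34 in WT (SD, n = 2), and LAMA4 was at 11.6 ± 2.44, 45.0 ± 2.97 and 21.5 ± 1.30 in the same order. LAMA5 rose in G2/SCR (log2 0.91, adjusted p = 3.4e-06, limma) and was not called in G2/WT, where the log2 difference was 0.27. It was lower in SCR than in WT (log2 -0.64), a call that was lost without SCR replicate 2 (-0.56) and under scaling to the same total (-0.36) or to the upper quartile (-0.58).

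LAMA1, an alpha chain of the early embryo, was at 385, 319 and 311 normalized counts in G2, 182, 193 and 164 in SCR and 130.4 and 89.4 in WT, and rose in both G2 comparisons (log2 0.90 and 1.63). LAMA1 was also higher in SCR than in WT (0.73), a call that was lost without WT replicate 2 (0.46). LAMA3, an epithelial alpha chain, rose in both G2 comparisons as well (log2 0.95 and 1.02). LAMA2, the alpha chain of muscle and Schwann cells, was at 41.4, 55.8 and 35.5 in G2, while the controls were at the floor of 3 fragments per library or below. Set against that floor, LAMA2 in G2 was at least 5.43-fold higher than SCR, and for WT the bound was at least 4.4-fold higher. Among the 5 alpha chains, LAMA4 was thus the one that was lower in G2 than in every control library.

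**Figure D3:**
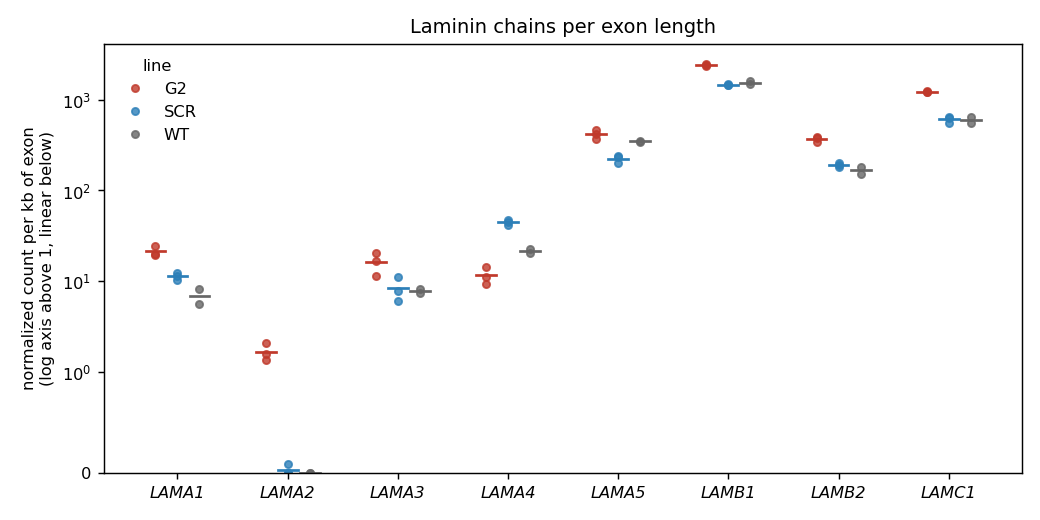
Level of the 5 laminin alpha chains and of LAMB1, LAMB2 and LAMC1 in normalized counts per kilobase of exon (log axis above 1, linear below), with 1 point per library and a bar at the mean of each line. LAMA5 is the highest alpha chain in all 3 lines, and LAMA4 is the one alpha chain whose G2 points lie below SCR and WT.

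The nidogen genes showed the largest rises of the set. NID1 (GSHG0003709, chromosome 1 from 235975841 to 236065512 on the minus strand) stood at 16628, 17010.5 and 16638 normalized counts in G2, 2562, 2314 and 2412 in SCR and 3279 and 4043 in WT. The G2 libraries lay far above the controls, and both WT libraries lay above all SCR libraries. The log2 fold change was 2.79 with SCR as the control (SE 0.07, adjusted p = 6.0e-11, limma) and, with WT as the control, 2.20 (SE 0.08, adjusted p = 9.6e-10), that is 6.90-fold and 4.60-fold. In SCR/WT it was -0.58 (SE 0.08, adjusted p = 2.4e-04), a fold that fell short of the threshold of 1.5 only beyond the decimals shown. It passed that threshold without SCR replicate 1 (-0.62) or without WT replicate 1 (-0.74).

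NID2 (GSHG0012881, chromosome 14 from 52004803 to 52069828 on the minus strand) stood at 323, 325 and 332 normalized counts in G2, 123, 103 and 95.2 in SCR and 48.4 and 66.5 in WT, in the order G2, SCR, WT with no overlap between the lines. The log2 fold change was 1.61 with SCR as the control (SE 0.16, adjusted p = 5.7e-06, limma) and, with WT as the control, 2.50 (SE 0.18, adjusted p = 3.3e-07), and SCR exceeded WT by 0.90 (SE 0.18, adjusted p = 0.0026). The NID2 entry overlaps that of RTRAF over 5892 bases. RTRAF was at means of 7102 normalized counts in G2, 8116 in SCR and 9842 in WT, lower in G2 whereas NID2 was higher. The strand setting of the counting is not stated, and without it reads of the shared bases cannot be told apart. Among the other 9 genes, HSPG2 overlaps LDLRAD2, whose mean level was 3.2% of that of HSPG2 in G2, 9.51% in SCR and 12.6% in WT, and the remaining overlapping entries stayed at or below 0.394% of the gene's own level in each line.

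The control lines differed in the balance of the nidogens. The log2 ratio of NID1 to NID2 was 5.68, 5.70 and 5.64 in G2, 4.36, 4.47 and 4.65 in SCR and 6.05 and 5.90 in WT. G2 lay between both controls, 1.18 above SCR and 0.30 below WT on the log2 scale, and no difference from the 5 control libraries was detected (exact two-sided permutation test, p = 0.36, adjusted p = 0.45).

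The genes of both heparan sulfate proteoglycans rose. HSPG2 (GSHG0002131, chromosome 1 from 21822244 to 21937310 on the minus strand), which encodes perlecan, stood at 659.6, 682 and 667 normalized counts in G2, 353, 287 and 357 in SCR and 264 and 258 in WT. All G2 libraries were above the controls. The log2 fold change was 1.02 with SCR as the control (SE 0.10, adjusted p = 6.1e-06, limma) and, with WT as the control, 1.35 (SE 0.12, adjusted p = 1.4e-06). In SCR/WT it was 0.34 (SE 0.12, adjusted p = 0.04), below the fold threshold, and it passed the threshold under scaling to the same total (0.61), which raised the median of all genes by 0.27. AGRN (GSHG0000010, chromosome 1 from 1020120 to 1056116 on the plus strand) stood at 3111, 3481 and 3869.5 normalized counts in G2, 1441, 1319 and 1439 in SCR and 2015 and 1518 in WT, with every G2 library above every control library and SCR below WT. Its log2 fold change was 1.31 with SCR as the control (SE 0.11, adjusted p = 7.4e-07, limma) and, with WT as the control, 0.99 (SE 0.12, adjusted p = 2.3e-05), with -0.32 (SE 0.12, adjusted p = 0.052) in SCR/WT.

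The log2 ratio of HSPG2 to AGRN was -2.24, -2.35 and -2.53 in G2, -2.03, -2.20 and -2.01 in SCR and -2.93 and -2.55 in WT. Here too G2 lay between the controls, and no difference from them was detected (exact two-sided permutation test, p = 0.89, adjusted p = 0.89). Hence, of the 5 ratios, those of the collagen IV chains, of LAMB1 to LAMB2 and of LAMA4 to LAMC1 separated G2 from all controls. None of the 5 passed an adjusted p of 0.05. The separated ratios were at the smallest p that the permutation test allows (0.036), which gave an adjusted p of 0.060. With the other ratios not separated, no wider separation could have lowered it. The ratios of the nidogens and of the proteoglycans separated SCR from WT more than G2 from the controls together.

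**Figure D4:**
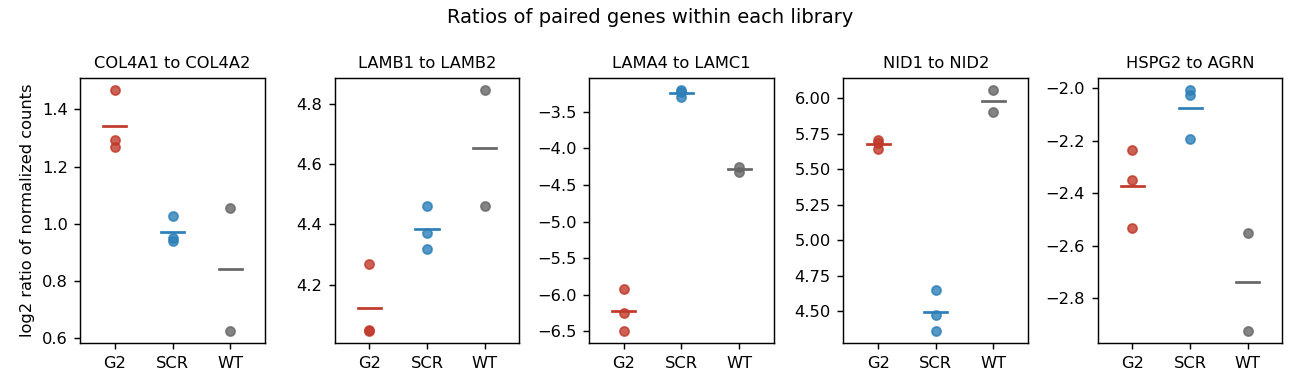
Log2 ratio of normalized counts of 5 gene pairs within each library, with 1 point per library and a bar at the mean of each line; each panel has its own axis. G2 lies outside the range of SCR and WT in the first 3 panels and between them in the last 2.

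Levels were compared between the genes per kilobase of exon. In G2 the order was NID1 (2884.0 ± 37.5, SD, n = 3), LAMB1 (2382 ± 62.0), COL4A1 (1498 ± 33.5), LAMC1 (1223 ± 8.51), COL4A2 (449.9 ± 32.7), LAMB2 (371 ± 24), AGRN (324 ± 35.3), NID2 (52.5 ± 0.775), HSPG2 (37.0 ± 0.634) and LAMA4 (11.6 ± 2.44). Of these neighbours only LAMB2 and AGRN overlapped between libraries. In SCR the order began with LAMB1 (1468 ± 4.73, SD, n = 3), COL4A1 (670.3 ± 18.0), LAMC1 (606 ± 49.1) and NID1 (418 ± 21.4), and HSPG2 and NID2, at 18.3 ± 2.16 and 17.3 ± 2.34, overlapped at its end. In WT, COL4A1 (640.0 ± 95.2, SD, n = 2), NID1 (630.0 ± 92.9) and LAMC1 (599 ± 58.4) did not differ beyond their spread. NID1 moved from the fourth place in SCR and the third place in WT to the first place in G2. With the length of the longest transcript in place of all exons, NID1 was the third in G2, behind LAMB1 and COL4A1, and the fifth in both controls, so the ranks depend on the length used.

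The promoters of the genes were compared in the RefSeq table (GRCh38.p14, from 250 bases before to 50 after the start), in which 9 of the 10 genes were found, all but AGRN. The window of NID1, the gene that rose the most in G2/SCR, is shown beside that of LAMA4, the gene that fell. Capitals mark a CCAAT box, a GC box (GGGCGG) or a TATA box (TATAAA) on either strand. Both are printed in the direction of transcription, on the minus strand, as chr1:236065041-236065340 and chr6:112254518-112254817, and the entries of the table start 422 and 144 bases further upstream than the RefSeq starts.
NID1 promoter: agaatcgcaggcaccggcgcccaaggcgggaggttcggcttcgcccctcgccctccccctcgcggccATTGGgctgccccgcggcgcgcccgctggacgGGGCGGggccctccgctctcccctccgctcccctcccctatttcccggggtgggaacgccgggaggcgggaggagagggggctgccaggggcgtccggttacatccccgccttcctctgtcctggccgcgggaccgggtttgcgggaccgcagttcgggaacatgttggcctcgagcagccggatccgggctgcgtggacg
LAMA4 promoter: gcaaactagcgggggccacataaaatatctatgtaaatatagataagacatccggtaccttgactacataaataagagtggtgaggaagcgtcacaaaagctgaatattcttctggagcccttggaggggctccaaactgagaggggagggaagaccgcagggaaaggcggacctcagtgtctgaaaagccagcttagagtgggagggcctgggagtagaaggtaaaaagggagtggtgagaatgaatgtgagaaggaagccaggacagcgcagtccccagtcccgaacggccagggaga

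The NID1 window holds 1 CCAAT box (as ATTGG) and 1 GC box, with a GC content of 74.7%. The LAMA4 window holds none of the 3 motifs, with a GC content of 51.3%, the lowest of the 9 windows and below the median of 58.7% over the 35116 promoters of the table. The other windows ran from 58.7% (LAMB2) to 83.3% (HSPG2). A GC box was found in 8 of the 9 windows, all but that of LAMA4, and in 45.0% of all promoters, and a CCAAT box in 4 of 9 (COL4A1, COL4A2, NID1 and NID2) and in 34.6% of all. COL4A1 and COL4A2 share the stretch that holds theirs. No window held TATAAA (11.5% of all promoters), the AP-1 site TGACTCA (4.95%) or the TEAD site GGAATG (14.0%), and the E-box CANNTG was found in 1 of 9, that of NID2, and in 68.7% of all, each searched on both strands. These matches describe the letters of the windows and not the binding of a factor.

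Genes near these 10 on the chromosomes were described by their median change, which cannot be set against the change of a single gene. Over the 20 tested genes nearest to each of the 10 genes, the median log2 fold change in G2/SCR ran from -0.24 (around LAMB2) to 0.28 (around NID2). These medians depended on the number of neighbours taken, and ran from -0.28 (around LAMA4) to 0.37 (around AGRN) over 10 and from -0.18 (around AGRN) to 0.21 (around COL4A1 and COL4A2) over 40. Around NID1 the median in G2/SCR was 0.25, -0.03 and -0.15 over 10, 20 and 40 neighbours. In G2/WT the medians ran from -0.27 (around LAMA4) to 0.25 (around LAMB1) over 20 neighbours. Over 10 they ran from -0.35 (around LAMC1) to 0.49 (around AGRN). The 5 genes whose log2 values followed COL4A1 most closely over the 8 libraries, out of 13064 with means of 100 or more, were HEG1, PXDN, TNIK, PDZRN3 and PPFIBP1 (Pearson r between 0.998 and 0.999). The libraries fall into G2 and control clusters for COL4A1, so these coefficients are given as a description of that pattern. One of them, PXDN, encodes peroxidasin, the enzyme that forms the sulfilimine crosslinks of collagen IV. It stood at 8883, 9047 and 8571 normalized counts in G2, 4575, 4698 and 4783 in SCR and 4295 and 4942 in WT, and changed on the log2 scale by 0.91 in G2/SCR, 0.94 in G2/WT and 0.02 in SCR/WT.

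The genes for folding, export and crosslinking of collagen IV mostly rose as well. Of 15 tested, 12 were higher in G2/SCR and none was lower, and in G2/WT 10 were higher and none lower, with medians of 1.09 and 0.79 on the log2 scale, against 2 called in SCR/WT (1 higher, 1 lower). With SCR as the control, 15.1% of all genes tested were called higher and 11.8% lower. With WT as the control the shares were 17.7% and 12.2%, and 16.3% were called between the controls. LOXL2, a lysyl oxidase that crosslinks collagen IV, stood at 3309, 3122 and 3309.7 normalized counts in G2, 267, 313 and 278 in SCR and 199 and 165 in WT, and was 3.5 higher in G2/SCR and 4.16 higher in G2/WT on the log2 scale. LOXL2 was also higher in SCR than in WT (0.65), a call that was lost without WT replicate 2 (0.52). P4HA1, a catalytic subunit of prolyl 4-hydroxylase, rose by 1.64 in G2/SCR and 1.51 in G2/WT. SERPINH1, the collagen chaperone HSP47, rose by 1.44 and 1.01.

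Among the receptors that bind basement membranes, 11 of the 14 tested rose in G2/SCR and 10 in G2/WT, with none lower (medians 1.40 and 1.48), and 5 were higher in SCR than in WT. The shares of all genes tested that were higher were 15.1% in G2/SCR, 17.7% in G2/WT and 10.7% in SCR/WT. ITGB1, the beta subunit shared by the laminin and collagen receptors, stood at 46557, 44595 and 43742 normalized counts in G2, 17851, 18983 and 18748 in SCR and 19606 and 22300.3 in WT, and rose by 1.28 against SCR and 1.10 against WT on the log2 scale. ITGA2, an alpha subunit of a collagen receptor, rose by 4.07 and 4.79. The subunits of laminin receptors ITGA6 and ITGA3 rose by 2.79 and 2.77 in G2/SCR and by 5.12 and 3.85 in G2/WT. These alpha subunits were also higher in SCR than in WT, by 0.71 for ITGA2, 2.33 for ITGA6 and 1.09 for ITGA3, the first of which was lost without WT replicate 1 (0.55). DAG1, which encodes dystroglycan, a receptor of laminin, perlecan and agrin, rose in G2/SCR (log2 0.62), a call lost under both other scalings (0.53 in each), and was not called in G2/WT (0.31).

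Genes for proteases of the basement membrane and their inhibitors also changed. Of 16 tested, 12 were higher and 1 lower in G2/SCR, and 11 were higher and none lower in G2/WT (medians 1.16 and 1.03). For all genes tested the shares were 15.1% higher and 11.8% lower in G2/SCR, and 17.7% and 12.2% in G2/WT. TIMP1, an inhibitor of metalloproteinases, stood at 17813, 18648 and 18220.3 normalized counts in G2, 108, 122 and 81.6 in SCR and 1372 and 1071 in WT. Here the controls differed from each other too, with a log2 fold change of -3.55 in SCR/WT, while G2 exceeded SCR by 7.46 and WT by 3.91. The plasminogen activators PLAT and PLAU rose by 3.16 and 3.13 in G2/SCR and by 3.54 and 5.51 in G2/WT. PLAU was also higher in SCR than in WT (log2 2.38), with means of 494 normalized counts in G2, 55.5 in SCR and 10.2 in WT, near the floor. PLAT was not called in SCR/WT (0.38), except under scaling to the same total (0.66). The gene that fell in G2/SCR, named after its values were seen, was MMP2, a gelatinase that cleaves collagen IV (log2 -0.60). This call was lost without G2 replicate 3 (-0.58) or without SCR replicate 3 (-0.58), and MMP2 was not called in G2/WT (-0.34).

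Among 28 further basement membrane components, 19 passed the filter, of which 14 were higher and 2 lower in G2/SCR, 10 higher and 1 lower in G2/WT, and 3 higher and 5 lower in SCR/WT. The shares of all genes tested, higher and lower, were 15.1% and 11.8% for G2 against SCR. They were 17.7% and 12.2% for G2 against WT, and 10.7% and 5.63% for SCR against WT. Some of the components lower in SCR than in WT, LAMA5 among them, were called higher in G2 against SCR but not against WT. COL18A1, the source of endostatin, rose by 1.17 and 1.40 against SCR and WT, and FREM1, a component of epithelial basement membranes in the embryo, by 1.39 and 0.92. SMOC1, a secreted calcium-binding protein of basement membranes that fell in both G2 comparisons and was named after its values were seen, was at 0, 6.57 and 0 normalized counts in G2, 29.6, 12.2 and 38.5 in SCR and 42.2 and 19.9 in WT.

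**Figure D5:**
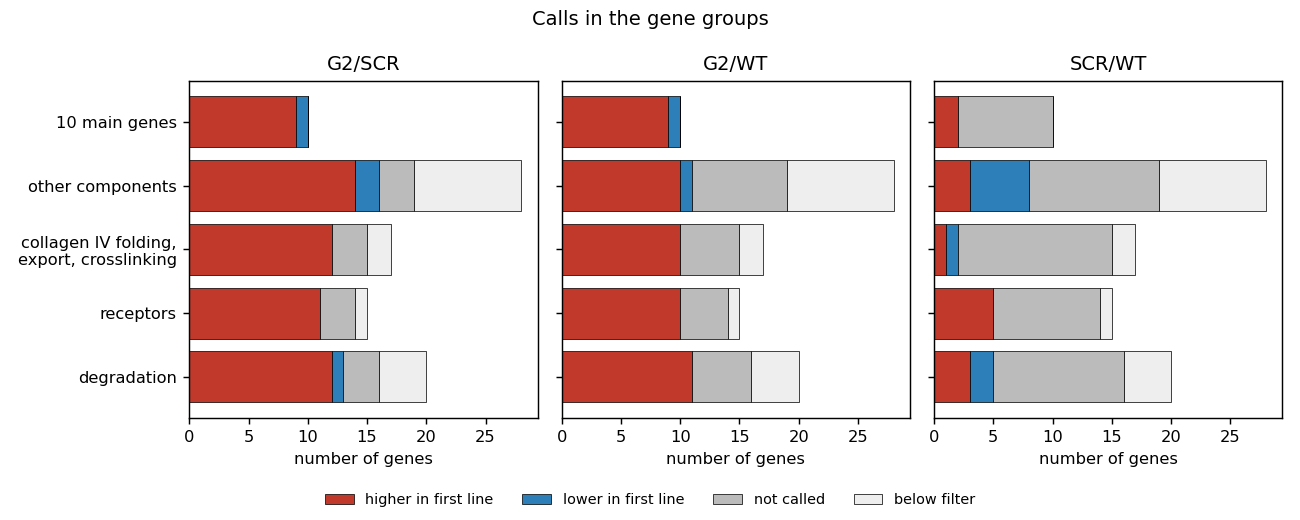
Number of genes higher, lower and not called in each of 5 gene groups in G2/SCR, G2/WT and SCR/WT, and those below the filter of a mean of 10 normalized counts; higher and lower refer to the first line of each pair. The 10 main genes show 9 higher and 1 lower in both G2 comparisons and 2 higher in SCR/WT.

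Markers of cells that make basement membranes were measured beside these genes. The fibroblast and mesenchymal list summed to between 69417 and 70576 normalized counts in G2, 49825 and 51390 in SCR and 49734 and 54301 in WT, and 5 of its 8 tested genes were higher in each G2 comparison. The highest levels in it were those of THY1 (means of 35983 in G2, 17502 in SCR and 20028 in WT) and TWIST1 (21105, 27740 and 26687). TWIST1 was lower in every G2 library than in every control library and was not called. FAP and LUM were also higher in SCR than in WT, by 3.24 and 1.80 on the log2 scale. The pericyte and smooth muscle list summed to between 771865 and 813399 in G2, 441404 and 487442 in SCR and 462606 and 484331 in WT. Of this, RGS5 alone held between 766224 and 808621 in G2. In each G2 comparison 4 of the 5 tested genes of this list were higher, or 3 by adjusted p, without DES. DES was at 11.3, 24.1 and 27.9 normalized counts in G2 and at the floor in SCR and WT. ACTA2 was also higher in SCR than in WT, by 2.05 on the log2 scale. The adrenergic markers mostly fell, with GATA3 and STMN2, named after their values were seen, as exceptions. GATA3 was higher in every G2 library than in every control library. Its log2 change was 0.37 against SCR and 0.28 against WT (adjusted p = 1.4e-04 and 0.0020, limma), short of the fold threshold. STMN2 alone held between 162678 and 168076 normalized counts in G2. It changed by -0.04 against SCR and 0.50 against WT (adjusted p = 0.49 and 5.5e-06, limma) and was not called. Of the 10 markers, 7 were called lower in each G2 comparison and none higher. Beside these counts, 15.1% of all genes tested were higher and 11.8% lower in G2/SCR, and 17.7% and 12.2% in G2/WT. The part of these lists in the changes of the basement membrane genes was not tested. The endothelial list was near the floor, with sums of 83.2 to 115 in G2, 54.1 to 68.5 in SCR and 34.8 to 61.6 in WT, and PECAM1 was at 0 in every library. The Schwann cell list, with SOX10 at 0 in every library, summed to between 169.7 and 267 in G2, 387 and 595 in SCR and 426 and 463 in WT. The epithelial list, with KRT5 and KRT14 at 0, summed to between 203 and 313 in G2 and between 196 and 292 in the controls.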

How the data were processed

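RNA-seq was performed on stranded paired-end libraries of polyadenylated RNA. According to the submitters' processing notes and the methods, the authors mapped reads to hg38 with STAR 2.7.5a, counted them with featureCounts (Subread 1.5.0) on the FAST DB annotation and normalized with DESeq2. The deposited signal is the normalized count of a gene in a library, its count divided by the library's size factor. The strand setting and the treatment of reads that match several genes are not given in the sources used here. Every column was assigned to a line by the library titles.

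Values are whole multiples of a step between 0.756 and 1.24 in each library, so whole counts were recovered for 100% of values (tolerance 0.05), although the step of WT replicate 2 lies too near 1 to be checked. Between 67.1% and 71.5% of small recovered counts (1 to 60) were multiples of 3, so 9 recovered counts, about 3 fragments, were taken as the floor, which covers counting error only.

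Log2(value + 1) of the 18947 genes averaging 10 or more was fitted with limma 3.58.1 (R 4.3.3, lmFit, eBayes with trend), with a mean per line over the 8 libraries. This scale understates the change of weakly expressed genes. P-values were adjusted by Benjamini-Hochberg over all genes tested. As alternatives, recovered counts of G2/SCR were tested with DESeq2 1.42.0 and with edgeR 4.0.16. The scripts were tested on simulated data. Ratios were tested with scipy 1.17.1 by an exact permutation test. The labels call the libraries of a line biological replicates without saying how they were grown, and p-values measure the spread between these libraries, not between independently edited lines. Replicate pairs differed by more than sampling noise (chi-square per gene between 2.47 and 21.4), and the WT pair differed the most.

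The members, lists and tests were chosen with earlier results of these data known. Named genes are the members, up to 3 per other list with the largest change in G2/SCR (calls against SCR and WT of like direction, a mean of 100 or more, every G2 library outside the controls), a fixed set of well-known genes and the 5 genes most like COL4A1. The values of 1 listed gene are not reported here.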

Additional observations from a re-analysis of the deposited data

How the results depend on the processing

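Each alternative kept the direction of all 10 basement membrane genes against SCR and WT, and all 10 were called in G2/SCR by DESeq2 and edgeR on recovered counts, also when these were divided by 3 (an alternative chosen after seeing the data). Replicate and library numbers did not pair the samples, since deviations from the line means correlated between -0.03 and 0.04 over 7 pairs by replicate number and between -0.03 and 0.05 over 4 pairs by library number. With either number as a replicate block, 10 members each were called against SCR and WT, and in SCR/WT 2 with the replicate number and 3 with the library number, where NID1 passed (-0.65). With a fold of at least 2, 7 members were called in G2/SCR (not COL4A2, LAMB1 or LAMB2), 6 in G2/WT (not COL4A2, LAMB1, LAMA4 or AGRN) and 1 in SCR/WT (not NID2), 5 folding and 7 degradation genes in G2/WT, and 3 other components and 2 receptors in SCR/WT. The share of all genes called then fell to 15.6% in G2/SCR, 16.8% in G2/WT and 7.87% in SCR/WT, and PRPF40B (-0.95 in G2/SCR) was no longer called. With a mean of at least 100, fewer genes entered the test, and 9 other components passed in G2/SCR and 4 in G2/WT. Scaling to the same total moved the median of all genes to -0.10 in G2/SCR, 0.19 in G2/WT and 0.28 in SCR/WT, and called 5 other components and 4 folding genes in SCR/WT. Upper quartile scaling moved it to -0.10 in G2/SCR. The folding genes called in SCR/WT numbered 1 with a pseudocount of 8, a mean of at least 100, an adjusted p, a fold of at least 2 or the compared lines alone, and between 1 and 2 with each library left out. With a pseudocount of 0.5, NID1 passed the fold threshold in SCR/WT (-0.59). The cause of these changes was not tested, except where the rule itself sets it. With 3 G2 libraries, ratios cannot reach a p below 0.036, nor below 0.10 against SCR alone or 0.20 against WT alone.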
